A study of Rattus norvegicus with 29 samples.

Results

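The major histocompatibility complex (MHC) of the rat, named RT1, and the genes that load peptides onto its products were examined in whole duodenum. Members were the genes whose symbol in the array's annotation begins with RT1-, together with B2m, Cd74, Tap1, Tap2, Tapbp, Psmb8, Psmb9, Psmb10, Erap1 and Nlrc5. They came to 42 of the 14557 genes tested: 24 of class I, 10 of class II and 8 of peptide supply and class I regulation. Ciita and Ctss also belong to the rule, but no named row used here bears their symbols, and they were not analysed here. The values were log2 RMA expression values, 1 per probe set and array, from 29 arrays of 1 rat each.

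The rats were male wild-type Long-Evans animals aged 8 to 10 weeks, kept free of specific pathogens and given a liquid diet on the day before surgery. One group had Roux-en-Y gastric bypass (RYGB, 6 rats), which leads food past the duodenum, and was compared with its own sham operation (5 rats). Another had vertical sleeve gastrectomy (VSG, 6 rats), in which about 80% of the stomach was transected and food still passes the duodenum. It was compared with its sham operation (6 rats) and with the same sham operation under paired feeding (6 rats). In the VSG sham blunt forceps were pressed on the stomach along the line of the cut. RYGB had no pair-fed sham, so bypass and any change in food intake cannot be told apart there. The sources used here do not give the time from surgery to sampling.

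MHC class I molecules consist of a heavy chain and beta-2-microglobulin (B2m) and show peptides from inside the cell to CD8 T cells. Their peptides are cut by the proteasome, whose inducible subunits are Psmb8, Psmb9 and Psmb10, carried into the endoplasmic reticulum by the transporter Tap1-Tap2 and trimmed there by Erap1, while tapasin (Tapbp) holds the empty heavy chain at the transporter. Class II molecules, each a pair of an alpha and a beta chain, show peptides from endosomes to CD4 T cells. The invariant chain Cd74 guards their groove, RT1-DM exchanges its remnant for a peptide, and RT1-DO restrains RT1-DM. Dendritic cells, macrophages and B cells carry class II all the time, and the epithelium of the small intestine carries it as well. Class II genes share a promoter module that ends in a Y box bound by NF-Y, and several peptide supply genes have elements for interferon regulatory factors.

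The stretch of 130 bases before the start of transcription is printed for 6 class II genes. RT1-Da, RT1-Ba, RT1-Bb, RT1-Db1 and RT1-DMa are shown because their values went together from rat to rat, and RT1-DOa because it has a Y box and its values did not pass with theirs. RT1-DMb has no window in the table used here. Sequences are RefSeq's for assembly GRCr8, read 5′ to 3′ on the strand of the gene. Capitals mark the Y box CTGATTGG or, in RT1-DMa, its CCAAT part ATTGG.
RT1-Da (chr20:4515285-4515414, plus strand): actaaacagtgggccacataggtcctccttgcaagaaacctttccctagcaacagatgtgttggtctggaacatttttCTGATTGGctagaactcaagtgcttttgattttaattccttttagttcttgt
RT1-Ba (chr20:4576927-4577056, plus strand): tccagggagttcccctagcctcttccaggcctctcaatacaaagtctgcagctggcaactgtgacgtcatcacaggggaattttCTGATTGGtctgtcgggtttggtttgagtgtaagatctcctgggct
RT1-Bb (chr20:4604119-4604248, minus strand): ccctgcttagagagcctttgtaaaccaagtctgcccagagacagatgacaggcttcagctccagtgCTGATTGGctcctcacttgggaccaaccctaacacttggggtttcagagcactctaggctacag
RT1-Db1 (chr20:4560163-4560292, minus strand): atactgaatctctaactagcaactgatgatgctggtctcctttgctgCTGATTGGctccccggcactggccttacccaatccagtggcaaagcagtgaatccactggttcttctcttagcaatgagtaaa
RT1-DOa (chr20:4758424-4758553, minus strand): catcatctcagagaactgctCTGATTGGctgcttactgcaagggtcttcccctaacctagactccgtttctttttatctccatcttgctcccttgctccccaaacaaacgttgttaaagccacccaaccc
RT1-DMa (chr20:4712336-4712465, minus strand): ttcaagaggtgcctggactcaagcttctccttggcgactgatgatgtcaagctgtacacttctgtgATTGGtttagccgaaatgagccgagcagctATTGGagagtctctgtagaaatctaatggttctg

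Promoter windows of 250 bases before to 50 after the start were found for 38 of the 42 members, and both strands were searched. In either direction, the Y box CTGATTGG stood in 6 of the 9 class II windows (66.7%), in 8 of 23 class I windows (34.8%), in 1 of 6 windows of peptide supply genes, and in 3.5% of all 33469 windows. All class II matches read CTGATTGG on the strand of the gene, beginning 46 to 120 bases before the start. All class I matches were its reverse complement, so no class I window held it in the class II direction. The peptide supply match, in Psmb9, began 19 bases after the start. The shorter ATTGG, which lies within the Y box, stood in all 9 class II windows, in 17 of 23 class I windows (73.9%) and in 37.5% of all windows. The pattern of GAAA, any 2 bases and GAAA again, a core of elements for interferon regulatory factors, was found in 5 of 6 peptide supply windows (83.3%), in 4 of 23 class I windows (17.4%), in 0 of 9 class II windows and in 3.92% of all windows. These matches describe letters in a window and no binding. Tap2 and Psmb10 are shown as examples, with the pattern in capitals.
Tap2 (chr20:4652297-4652426, minus strand): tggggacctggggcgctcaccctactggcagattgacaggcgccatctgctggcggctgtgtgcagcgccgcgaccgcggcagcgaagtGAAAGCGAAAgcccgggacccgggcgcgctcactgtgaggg
Psmb10 (chr19:50743293-50743422, minus strand): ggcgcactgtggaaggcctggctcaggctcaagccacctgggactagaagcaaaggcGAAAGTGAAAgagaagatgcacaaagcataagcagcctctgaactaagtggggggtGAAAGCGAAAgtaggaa

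Of the 42 members 37 lie on chromosome 20 in GRCr8. RT1-T24-2 and RT1-M10-1, counted in class I by name, are listed there as long noncoding RNA genes. In that assembly the class II region runs RT1-Da, RT1-Db2, RT1-Db1, RT1-Ba, RT1-Bb, RT1-DOb, Tap2, Psmb8, Tap1, Psmb9, RT1-DMb, RT1-DMa and RT1-DOa, with 1 pseudogene, Arrb2-ps, after RT1-Db2, and Brd2l and Brd2 before RT1-DOa. The class I genes are close copies of each other, so a class I probe set may also read related genes, and single class I values are uncertain for that reason. RT1-A1 and RT1-A2 are not among the members, which were taken only from rows with 1 gene symbol. Each member had 1 row, and 17 members had a mean under 2.97, the highest median of an array, so that little signal stands behind their differences. Epithelial markers were at a mean of 9.68 to 9.84 in the 5 groups (12 of 14 measured), far above the array medians. The acinar markers of the pancreas, which adjoins the duodenum, differed widely (18 of 25 measured, none called in any comparison). The RYGB arrays had a mean of 7.31 ± 2.06 (SD, n = 6), against 4.17 ± 1.12 (SD, n = 5) for the RYGB sham. It was 7.31 ± 1.19 after VSG, 5.51 ± 1.87 in its sham and 6.01 ± 2.62 in pair-fed sham (SD, n = 6 each).

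No member passed the test in any of the 6 comparisons. The test was limma's moderated test in one model of the 5 group means, with Benjamini-Hochberg adjustment over all 14557 genes and a call at an adjusted p under 0.05. After RYGB 0 of 42 members were called, against 2.64% of all genes. Unadjusted p-values lay under 0.05 for 9 members (21.4%), and for 14.1% of all genes. For VSG against its sham 0 were called, against 0.179% of all genes, with 3 members (7.14%) and 8.99% of all genes at an unadjusted p under 0.05. For VSG against pair-fed sham 0 were called, against 0.508%, with 4 members (9.52%) and 11.1% of all genes under that unadjusted level. For pair-fed sham against sham, where 0% of all genes were called, 3 members (7.14%) and 5.57% of all genes lay under it. For the RYGB effect minus the VSG effect the share of genes called was 0.392%, and 1 member (2.38%) and 8.58% of all genes lay under it. For the VSG sham against the RYGB sham it was 0%, with 2 members (4.76%) and 5.2% of all genes. All differences below are therefore given as values that did not pass, with 95% intervals from the same fit where they matter.

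The class II genes had a higher median than class I and peptide supply genes when either surgery was compared with its freely fed sham, but not for VSG against pair-fed sham. Most class I genes had a mean under 2.97, the highest array median, but of the class II genes only RT1-DOb and RT1-Db2 did. The class I medians therefore rest largely on genes with little signal. After RYGB 8 of 10 class II genes were above 0, beside 50.7% of all genes. Their median log2 fold change was 0.28, beside 0.003 over all genes, and 4 had an unadjusted p under 0.05, beside 14.1% of all genes. The acinar marker mean moved with this comparison (7.31 after RYGB and 4.17 in its sham). With it as a covariate the class II median was 0.19, with 8 of 10 above 0. Without the arrays with an acinar mean above 7 the median was 0.28, also with 8 of 10, but only 2 RYGB arrays and 5 sham arrays were left. Single arrays left out gave 0.19 to 0.37. Against the VSG sham the VSG arrays had 9 of 10 above 0, beside 47.4% of all genes, and a median of 0.23, beside -0.01. The acinar mean was also higher after VSG (7.31) than in its sham (5.51). With it as a covariate the VSG differences were lower for all class II genes but RT1-Db2, as 0.24 instead of 0.37 for RT1-DMb. The pair-fed sham had 9 of 10 above 0 against the same VSG sham arrays, beside 53.1% of all genes, with a median of 0.16 beside 0.011. VSG against pair-fed sham gave 5 of 10 above 0, beside 46.4% of all genes. The class II median was 0.01, beside 0.06 for class I and -0.016 over all genes. The 2 comparisons with the VSG sham share its arrays, and the 2 comparisons of VSG share the VSG arrays. Of the class II genes 7 went up and down together from rat to rat (r of 0.51 to 0.86). The counts above 0 are therefore not counts of separate observations. The test of the RYGB effect minus the VSG effect called no class II gene, with a median of 0.07.

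**Figure D1:**
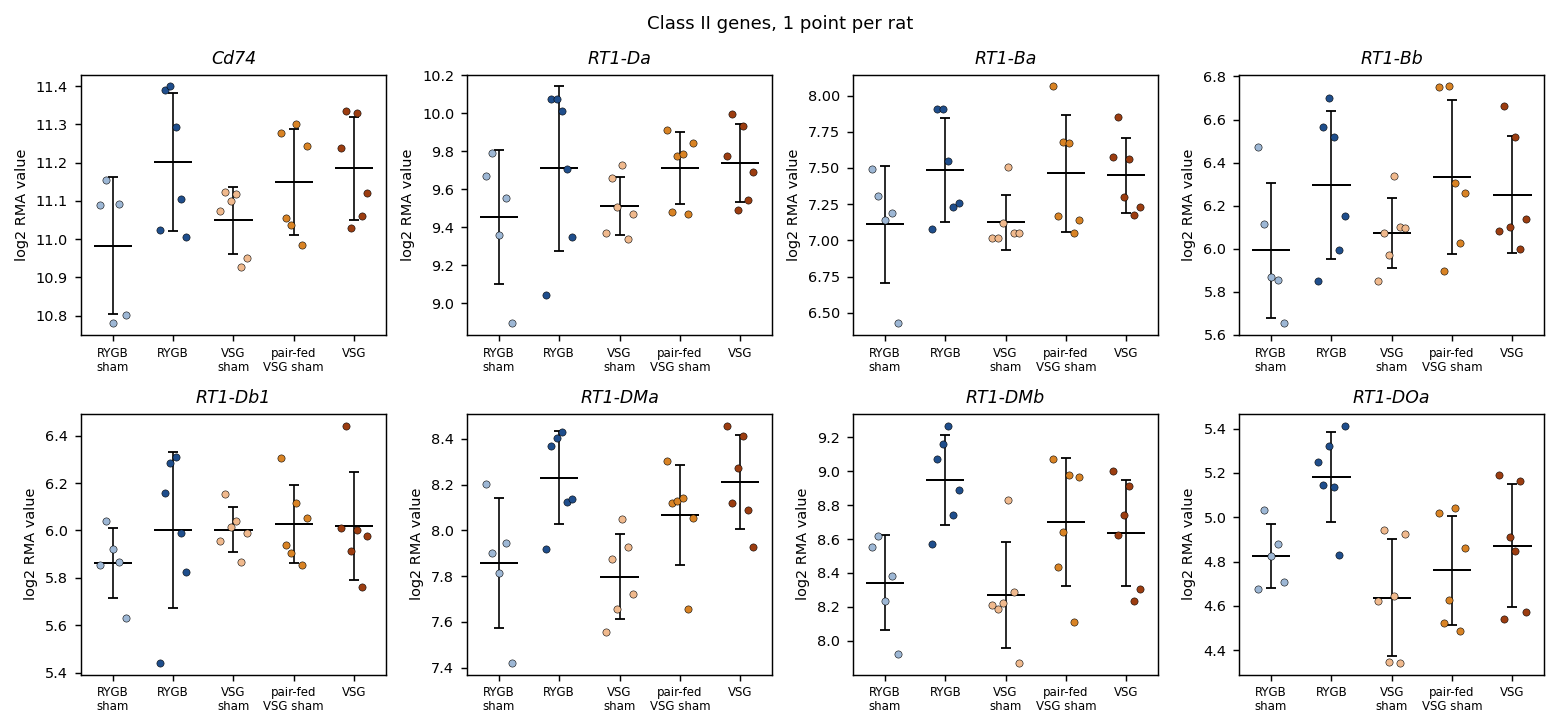
Log2 RMA values (y axis) of 8 class II genes in each of the 5 groups (x axis), with 1 point per rat, a horizontal bar at the group mean and a whisker of ± 1 SD. RT1-DMb lies between 8.57 and 9.27 after RYGB and between 7.92 and 8.62 in its sham, and in the panel of every gene the groups overlap.

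RT1-DMb, the beta chain of the peptide exchanger RT1-DM, came closest to the threshold. Its values in the RYGB sham were 8.56, 8.62, 8.23, 8.39 and 7.92. After RYGB it ran from 8.57 over a median of 8.98 to 9.27. The lowest RYGB array lay under the highest sham array, and the other RYGB arrays lay above all 5 sham arrays. The group means were 8.95 ± 0.27 (SD, n = 6) and 8.34 ± 0.28 (SD, n = 5), a log2 fold change of 0.61 ± 0.18 (SE, 1.52-fold, limma adjusted p = 0.0709, interval 0.24 to 0.98). Fitted with the acinar mean as a covariate, the difference was 0.38 (limma adjusted p = 0.453), and without the arrays whose acinar mean is above 7 it was 0.56 (limma adjusted p = 0.548). With the lowest 33.3% of genes by mean left out the gene was called, at the same difference (limma adjusted p = 0.0479). The arrays left out for their acinar mean were 4 RYGB arrays and 0 RYGB sham arrays. In whole tissue, more cells that carry a gene and more RNA per cell cannot be told apart.

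In the VSG set RT1-DMb ran from 7.87 over a median of 8.22 to 8.83 in the sham, from 8.11 over 8.80 to 9.07 in the pair-fed sham, and from 8.24 over 8.68 to 8.999 after VSG. The 3 groups overlapped, and VSG and pair-fed sham covered nearly one range. The difference from the sham was 0.37 ± 0.17 (SE, limma adjusted p = 0.539) for VSG and 0.43 ± 0.17 (SE, limma adjusted p = 0.82) for pair-fed sham. VSG and pair-fed sham differed by -0.06, with an interval from -0.42 to 0.29. The RYGB and VSG effects on RT1-DMb differed by 0.24 ± 0.25 (SE).

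RT1-DMa, the alpha chain of the same exchanger, had values of 8.20, 7.90, 7.82, 7.95 and 7.42 in the RYGB sham and ran from 7.92 over 8.25 to 8.43 after RYGB. The difference was 0.37 ± 0.13 (SE, limma adjusted p = 0.154), and the groups overlapped. With the acinar covariate it was 0.30, and without the arrays with an acinar mean above 7 it was 0.39. In the VSG sham it ran from 7.56 over 7.80 to 8.05, in the pair-fed sham from 7.66 over 8.13 to 8.30 and after VSG from 7.93 over 8.20 to 8.46. VSG lay 0.41 ± 0.13 above its sham (SE, limma adjusted p = 0.243, interval 0.15 to 0.68) and 0.14 above pair-fed sham (interval -0.12 to 0.41). The pair-fed sham lay 0.27 ± 0.13 above the sham (SE, limma adjusted p = 0.884).

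Of the restrainer RT1-DO, the alpha chain gene RT1-DOa had values of 4.68, 5.03, 4.82, 4.88 and 4.71 in the RYGB sham and ran from 4.83 over 5.20 to 5.41 after RYGB. It was 0.36 ± 0.14 higher (SE, limma adjusted p = 0.211), with 1 RYGB array inside the range of the sham. The RYGB difference was 0.28 with the acinar covariate and 0.16 without the arrays with an acinar mean above 7. After VSG the difference was 0.23 ± 0.14 (SE, limma adjusted p = 0.654). The beta chain gene RT1-DOb had group means between 1.87 and 2.15, all under the array medians, and differed by -0.24 after RYGB and by 0.23 after VSG.

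Cd74, the invariant chain, had values of 11.09, 11.15, 10.78, 11.09 and 10.80 in the RYGB sham and ran from 11.01 over 11.20 to 11.40 after RYGB. The groups overlapped, at a difference of 0.22 ± 0.10 (SE, 1.16-fold, limma adjusted p = 0.306), and of 0.15 with the acinar covariate. After VSG it ran from 11.03 to 11.34, in the VSG sham from 10.93 to 11.12 and in the pair-fed sham from 10.99 to 11.30. VSG was 0.14 above sham and 0.04 above pair-fed sham (interval -0.16 to 0.23).

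The chains that present peptide are RT1-D and RT1-B. RT1-Da, an alpha chain, was at 9.67, 9.79, 9.36, 9.56 and 8.89 in the RYGB sham and from 9.04 over 9.86 to 10.08 after RYGB. RYGB replicate 1 and sham replicate 5 were the lowest of their groups, the groups overlapped, and the difference was 0.26 ± 0.17 (SE, limma adjusted p = 0.546). It was 0.39 without RYGB replicate 1 and 0.12 without sham replicate 5. With the acinar covariate it was 0.19, and without the arrays with an acinar mean above 7 it was 0.44. RT1-Ba, the alpha chain of RT1-B, differed by 0.38 ± 0.19 after RYGB (SE, limma adjusted p = 0.374), by 0.32 ± 0.18 between VSG and its sham and by 0.34 ± 0.18 between pair-fed sham and sham. The RYGB difference of RT1-Ba was 0.21 without sham replicate 5 and 0.24 with the acinar covariate. Its partner RT1-Bb differed by 0.30, 0.18 and 0.26 in the same comparisons, and after RYGB by 0.19 with the acinar covariate. VSG and pair-fed sham differed by -0.01 for RT1-Ba (interval -0.39 to 0.36) and by -0.08 for RT1-Bb (interval -0.42 to 0.26). RT1-Db1, a beta chain, differed by 0.14 after RYGB (0.06 with the acinar covariate, and from 0.08 to 0.25 with single arrays left out) and by 0.01 between VSG and its sham. RT1-Db2, a second beta chain gene with group means of 1.93 to 2.03 under the array medians, differed by -0.08 and -0.10.

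**Figure D2:**
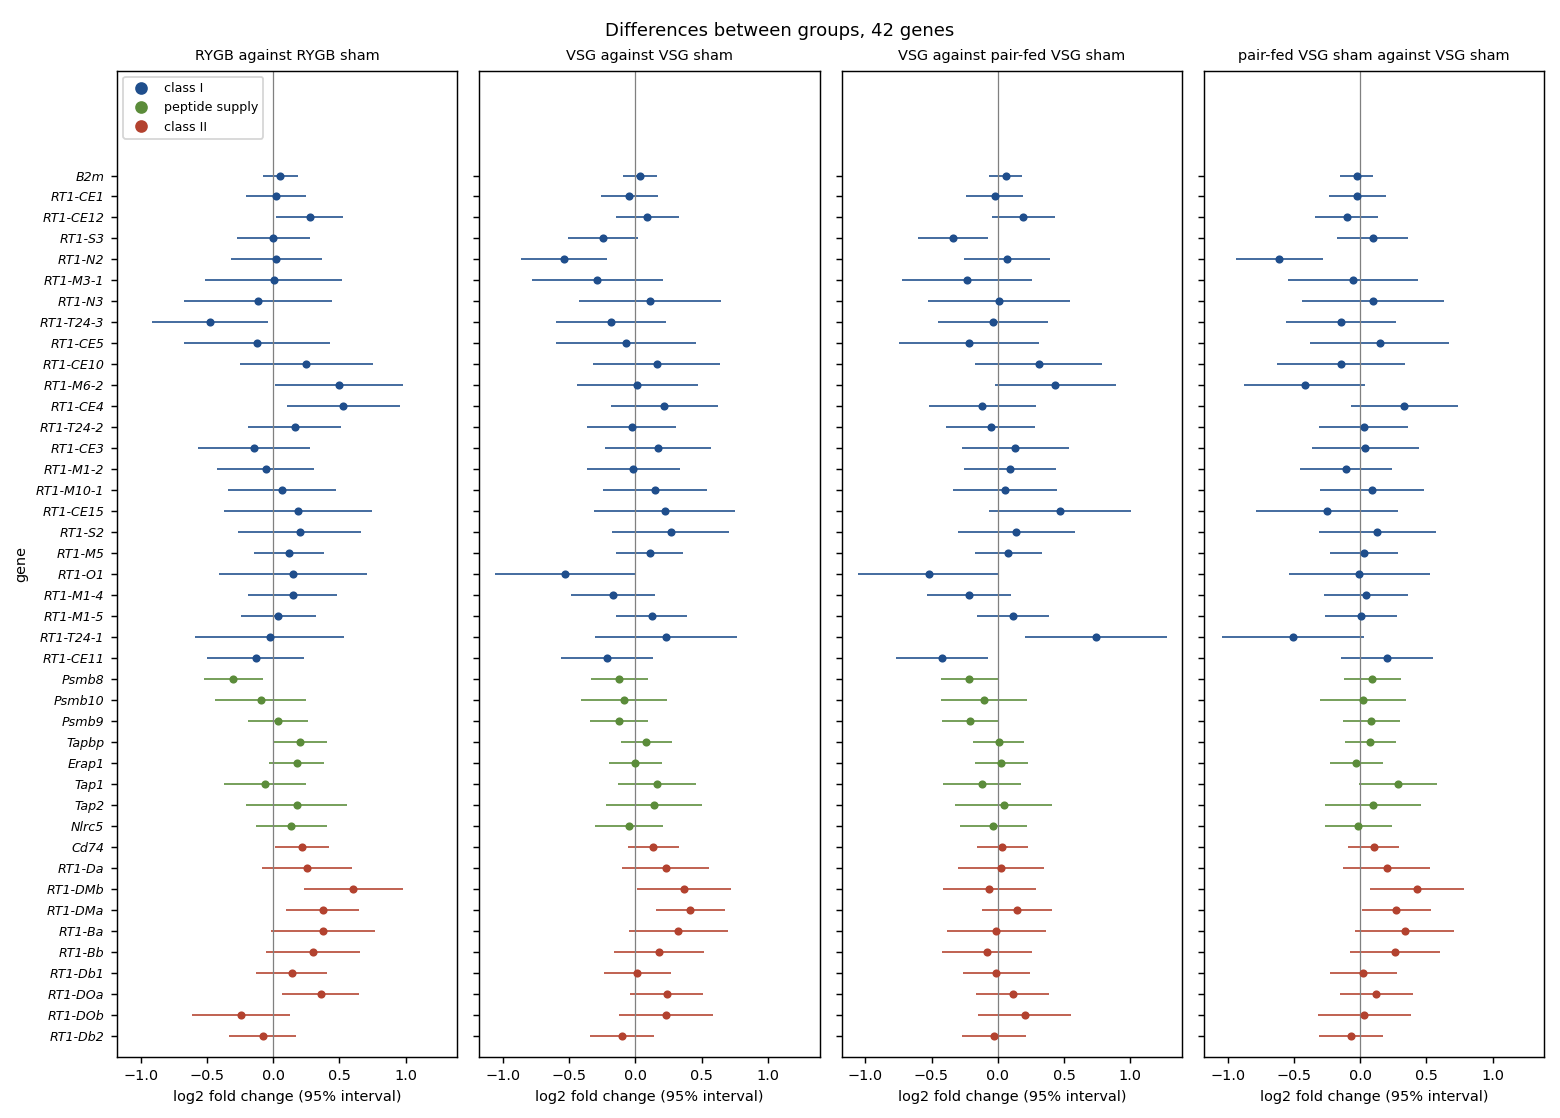
Log2 fold changes (x axis) of the 42 genes (y axis) in 4 comparisons, with points at the limma estimate, bars for its 95% interval and colour for class I, peptide supply and class II. The class II points lie mostly above 0 against the shams and around 0 for VSG against pair-fed sham, and no gene passed the test in any panel.

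Class I genes had medians near 0 in each comparison of surgery or feeding, though most of them lay above 0 after RYGB. Most class I genes had a mean under 2.97, the highest array median. Their median log2 fold change was 0.05 after RYGB, with 17 of 24 above 0 (70.8%), beside 50.7% of all genes. For VSG against sham it was 0.02 (13 of 24, beside 47.4% of all genes). For VSG against pair-fed sham it was 0.06 (14 of 24, beside 46.4%). For pair-fed sham against sham it was 0.001 (12 of 24, beside 53.1%). B2m had a within-group SD of 0.05, the 3rd smallest of 14557 genes, at a mean of 11.70. That mean lies at percentile 99.952 of all genes, near the top of the scale of these arrays, and the part of this in the small spread was not tested. It was at 11.73, 11.64, 11.62, 11.70 and 11.73 in the RYGB sham and from 11.66 over 11.72 to 11.82 after RYGB. The differences of B2m in these 4 comparisons ran from -0.03 to 0.06, and the RYGB interval was -0.08 to 0.19.

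RT1-N2, a nonclassical heavy chain gene, stood apart in 1 group. The 6 VSG sham arrays ran from 5.44 over 5.51 to 5.83. The 6 VSG arrays ran from 4.82 over 5.03 to 5.28 and the 6 pair-fed sham arrays from 4.48 over 5.06 to 5.30, so every VSG sham array lay above both groups. VSG was -0.54 ± 0.16 from its sham (SE, 1.45-fold lower, limma adjusted p = 0.215), and pair-fed sham -0.61 ± 0.16 (SE, 1.53-fold lower, limma adjusted p = 0.537). VSG and pair-fed sham differed by 0.07. The RYGB sham was at 4.98, 5.01, 4.46, 5.05 and 5.45 and RYGB from 4.68 over 4.92 to 5.48, and the groups differed by 0.02. The VSG sham lay 0.59 ± 0.17 above the RYGB sham (SE, limma adjusted p = 0.88), with 1 RYGB sham array inside its range. The RYGB effect minus the VSG effect was 0.56 ± 0.23 (SE, limma adjusted p = 0.459).

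RT1-N2 was the only member whose VSG arrays did not overlap the sham, 1 of 42 (2.38%), beside 0.845% of all genes. Between pair-fed sham and sham RT1-N2 and Tap1 did not overlap, 2 of 42 (4.76%), beside 0.261% of all genes. No member was free of overlap between RYGB and its sham (2.78% of all genes), between VSG and pair-fed sham (1.14%) or between the shams (0.405%).

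Of the other class I genes, those with the smallest p-values are given next, and not all of them had an unadjusted p under 0.05. RT1-CE12 was at 7.20, 6.85, 6.69, 6.60 and 7.01 in the RYGB sham and from 7.01 over 7.17 to 7.28 after RYGB, a difference of 0.28 ± 0.12 (SE, limma adjusted p = 0.29). RT1-T24-3 differed by -0.48 ± 0.21 after RYGB (SE, limma adjusted p = 0.298). RT1-CE4 and RT1-M6-2, with means of 2.86 and 2.89 under the highest array median, differed by 0.53 ± 0.21 and 0.50 ± 0.24 after RYGB (SE, limma adjusted p = 0.202 and 0.332). RT1-S3 was lower after VSG than in pair-fed sham by value, -0.34 ± 0.13 (SE, limma adjusted p = 0.292), with VSG from 5.86 over 6.21 to 6.59 and pair-fed sham from 6.37 over 6.45 to 6.99. The dim genes RT1-T24-1 and RT1-CE11, at means of 1.42 and 1.20, differed in that comparison by 0.74 ± 0.26 and -0.42 ± 0.17 (SE, limma adjusted p = 0.245 and 0.33). RT1-O1, at a mean of 1.83, differed by -0.53 ± 0.26 between VSG and its sham (SE, limma adjusted p = 0.558), and RT1-M1-5, at a mean of 1.499, had group means between 1.33 and 1.67. The remaining 13 class I genes had means from 1.65 to 9.53. Their differences ran from -0.15 to 0.25 after RYGB, from -0.29 to 0.27 for VSG against sham and from -0.23 to 0.47 for VSG against pair-fed sham.

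**Figure D3:**
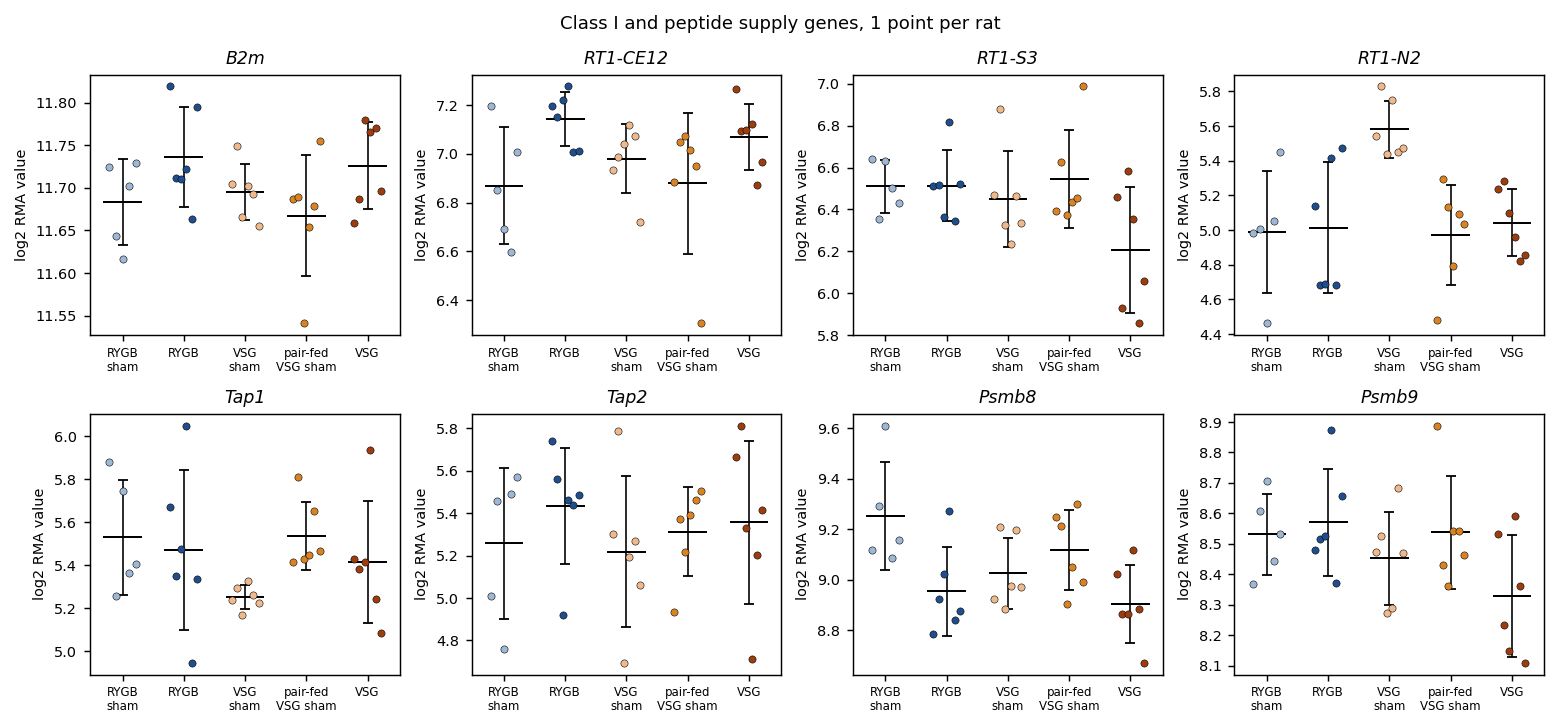
Log2 RMA values (y axis) of 4 class I and 4 peptide supply genes in each of the 5 groups (x axis), with 1 point per rat, a horizontal bar at the group mean and a whisker of ± 1 SD. RT1-N2 lies between 5.44 and 5.83 in the VSG sham, above every VSG and pair-fed sham array, and B2m stays between 11.54 and 11.82 on all 29 arrays.

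The peptide supply genes had medians of 0.09 after RYGB, -0.03 for VSG against sham, -0.07 for VSG against pair-fed sham and 0.08 for pair-fed sham against sham. Psmb8, a catalytic subunit of the immunoproteasome, was at 9.12, 9.29, 9.61, 9.09 and 9.16 in the RYGB sham and from 8.79 over 8.90 to 9.27 after RYGB. All but 1 of the RYGB arrays lay under the lowest sham array, and the difference was -0.30 ± 0.11 (SE, 1.23-fold lower, limma adjusted p = 0.168). The RYGB sham had the highest group mean (9.25), and the VSG sham differed from it by -0.23 (limma adjusted p = 0.942). VSG was -0.21 ± 0.11 from pair-fed sham (SE, limma adjusted p = 0.451) and -0.12 from its sham. The gene lies between class II genes on the chromosome, and its RYGB difference had the sign opposite to their median. The other 2 inducible subunits differed by 0.04 (Psmb9) and -0.09 (Psmb10) after RYGB, and by -0.21 and -0.11 between VSG and pair-fed sham.

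Tap1, a chain of the peptide transporter, ran from 5.17 over 5.25 to 5.33 in the VSG sham and from 5.42 over 5.45 to 5.81 in the pair-fed sham. All 6 pair-fed arrays lay above all 6 sham arrays, at a difference of 0.29 ± 0.14 (SE, 1.22-fold, limma adjusted p = 0.918). The VSG arrays ran from 5.09 over 5.40 to 5.93 and overlapped both. Tap1 was at 5.88, 5.26, 5.74, 5.37 and 5.41 in the RYGB sham and differed by -0.06 after RYGB. Tap2, the other chain, differed by 0.18 after RYGB, 0.14 after VSG and 0.10 in pair-fed sham. Tapbp, the tapasin gene, was 0.20 ± 0.10 higher after RYGB by value (SE, limma adjusted p = 0.356), and Erap1, the trimming peptidase, 0.18 ± 0.10 (SE, limma adjusted p = 0.463). Nlrc5, the transactivator of class I genes, had group means of 2.10 to 2.23, under the array medians, and differed by 0.14 after RYGB and -0.05 after VSG.

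Within the groups, class II genes went up and down together from rat to rat. Each gene's values were taken as deviations from its group means, and the 861 pairs of members were correlated over the 29 arrays, with 100000 permutations of the arrays within groups and Benjamini-Hochberg adjustment over the 861 pairs. Of the 45 class II pairs 41 had an r above 0, the median was 0.32, and 18 had an adjusted permutation p under 0.05. Among the 276 class I pairs the median was 0.01 and 1 pair passed, and among the 240 pairs of a class I with a class II gene the median was 0.03 and 0 passed. Most class I genes had a mean under 2.97, the highest array median, so that little signal stands behind their correlations. Of the 28 pairs within peptide supply 3 passed (median 0.22). Of the 80 pairs of class II with peptide supply 0 passed (median 0.11), and of the 192 pairs of class I with peptide supply 2 passed (median 0.04). In all 24 pairs passed. Pairs of genes outside the members were not correlated, so the share that passes among other genes of like level is not known. The acinar mean, which varied within the groups, was not removed from the deviations.

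The 18 class II pairs lie among 7 genes, Cd74, RT1-Da, RT1-Ba, RT1-Bb, RT1-Db1, RT1-DMa and RT1-DMb, a set chosen after its values were seen. Their 21 pairs had r from 0.51 to 0.86. Cd74 and RT1-Da, the invariant chain and an alpha chain, had r = 0.859 and rho = 0.893 over 29 arrays (permutation p = 1e-05 for both, the smallest the permutations can give, adjusted p = 0.00123 and 0.00143). Without the 2 arrays farthest from the median of Cd74 r was 0.869. For the other pairs the 2 arrays were likewise chosen by 1 gene of the pair, and by the member where it was set against markers. Arrays extreme in the partner alone stayed in. RT1-Ba and RT1-Bb, partners in one molecule, had r = 0.862 and rho = 0.845 (permutation p = 1e-05 for both, adjusted p = 0.00123 and 0.00143, r = 0.856 without 2 arrays). RT1-DMa and RT1-DMb, likewise partners, had r = 0.826 and rho = 0.805 (permutation p = 1e-05 for both, adjusted p = 0.00123 and 0.00143, r = 0.784 without 2 arrays). RT1-DOa, RT1-DOb and RT1-Db2 had r of -0.13 to 0.49 with the 7. By sequence, the windows of RT1-DOa and RT1-Db2 hold the Y box and that of RT1-DOb holds ATTGG only. B2m had r of -0.39 to -0.06 with the 7. All values of a pair share an array, so RNA quality and tissue makeup of that array are common to them.

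The immunoproteasome subunits formed the other group of passing pairs. Psmb8 and Psmb10 had r = 0.773 and rho = 0.770 (permutation p = 1e-05 for both, adjusted p = 0.00123 and 0.00143, r = 0.774 without 2 arrays). Psmb8 and Psmb9 had r = 0.771 and rho = 0.710 (permutation p = 2e-05 and 7e-05, adjusted p = 0.00172 and 0.00464, r = 0.728 without 2 arrays). Psmb10 and Psmb9 had r = 0.727 and rho = 0.759 (permutation p = 0.0002 and 4e-05, adjusted p = 0.00906 and 0.00383, r = 0.72 without 2 arrays). With the 7 class II genes these 3 subunits had r of -0.03 to 0.35. The passing pairs with a class I gene were RT1-M3-1 with RT1-O1 (r = -0.750, rho = -0.750, permutation p = 8e-05 and 7e-05, adjusted p = 0.0043 and 0.00464, r = -0.665 without 2 arrays), RT1-T24-2 with Psmb10 (r = -0.701, rho = -0.734, permutation p = 2e-05 and 5e-05, adjusted p = 0.00172 and 0.0043, r = -0.638 without 2 arrays) and RT1-N2 with Tap2 (r = 0.585, rho = 0.539, permutation p = 0.00058 and 0.00372, adjusted p = 0.0227 and 0.107, r = 0.475 without 2 arrays). RT1-O1 and RT1-T24-2 are dim, with means of 1.83 and 2.61, and RT1-T24-2 is listed as a long noncoding RNA gene.

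**Figure D4:**
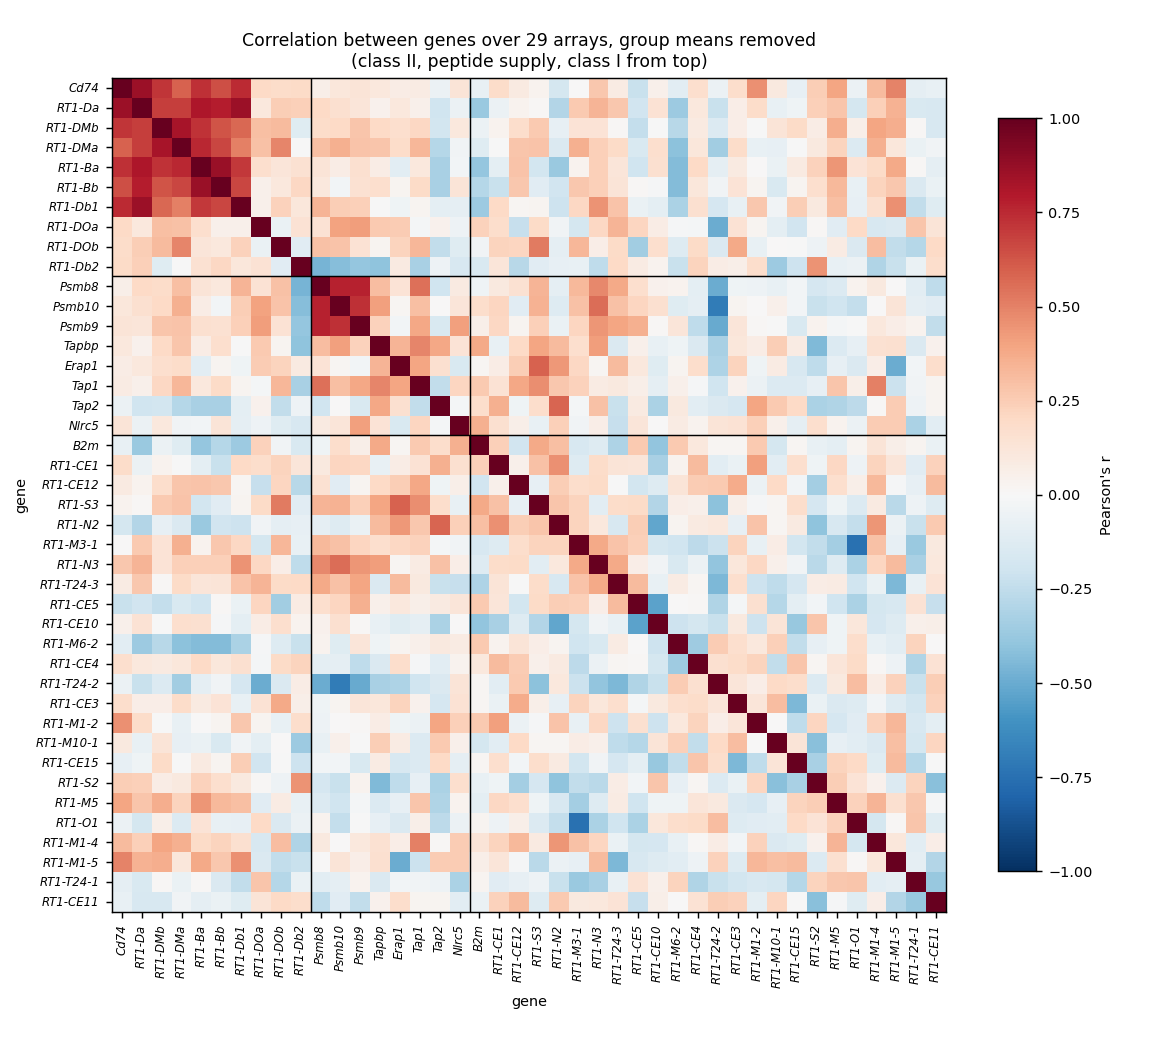
Pearson's r between all pairs of the 42 genes over 29 arrays after the group means were removed (both axes list genes, class II first, then peptide supply, then class I, with black lines between them; colour from -1 to 1). A block of 7 class II genes with r of 0.51 to 0.86 and a block of 3 immunoproteasome subunits with r of 0.73 to 0.77 stand out. Class I has no such block, and most of its genes had a mean under the highest array median.

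The same deviations were set against the means of 9 lists of cell type markers, 378 pairs in all. The adjusted permutation p of r was under 0.05 for 3 of them. Psmb8 followed the T cell markers (r = 0.624, rho = 0.743, permutation p = 0.00032 and 1e-05, adjusted p = 0.0479 and 0.00378, r = 0.671 without 2 arrays). Psmb9 followed the plasma cell markers (r = 0.606, rho = 0.600, permutation p = 0.00038 and 0.00114, adjusted p = 0.0479 and 0.108, r = 0.486 without 2 arrays). RT1-M5, a dim gene at a mean of 1.92, followed the acinar markers (r = 0.655, rho = 0.709, permutation p = 9e-05 and 8e-05, adjusted p = 0.034 and 0.0151, r = 0.596 without 2 arrays). No class II gene passed with any list. The largest r was that of RT1-Db1 with all leukocytes (r = 0.567, rho = 0.368, permutation p = 0.0144 and 0.0898, adjusted p = 0.227 and 0.551, r = 0.328 without 2 arrays). RT1-Db1 with dendritic cells had r = 0.511 and rho = 0.521 (permutation p = 0.014 and 0.0116, adjusted p = 0.227 and 0.28, r = 0.35 without 2 arrays). RT1-DMb with the acinar markers had r = 0.434 and rho = 0.425 (permutation p = 0.0384 and 0.0364, adjusted p = 0.354 and 0.388, r = 0.331 without 2 arrays). RT1-Da had r = 0.466 and rho = 0.488 with the dendritic cell markers (permutation p = 0.0171 and 0.0185, adjusted p = 0.239 and 0.297, r = 0.383 without 2 arrays).

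No gene of the immune cell marker lists was called in any comparison. The group means ran from 4.07 to 4.26 for dendritic cells (8 of 10 markers measured), from 5.43 to 5.65 for macrophages (8 of 11), from 4.46 to 4.62 for T cells (11 of 12), from 5.70 to 5.78 for all leukocytes (4 of 5) and from 2.66 to 2.79, under the array medians, for B cells (7 of 12). They ran from 6.67 to 6.88 for plasma cells (4 of 6) and from 2.91 to 3.17 for natural killer and cytotoxic cells (7 of 7). In RYGB against its sham the median log2 fold change was -0.25 for macrophages (2 of 8 above 0), -0.22 for plasma cells (0 of 4) and -0.13 for dendritic cells (4 of 8), against 0.28 for class II, and 0.10 for B cells (5 of 7), 0.06 for T cells (6 of 11), 0.15 for natural killer and cytotoxic cells (5 of 7) and 0.01 for all leukocytes (2 of 4). With the B cell mean as a covariate RT1-DMb differed by 0.61 after RYGB (limma adjusted p = 0.0762). The lists other than acinar and B cell markers were not fitted as covariates.

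Other genes of the pathway that are not members were counted by lists. After RYGB 1 of 7 class II processing genes and 1 of 5 class I-like genes fell, and none of the 5 measured class I loading genes, 6 class II transcription factors, 13 interferon gamma genes and 6 costimulation genes was called. Over all genes 2.64% were called and 2.78% had groups that did not overlap, so 2 of 42 genes of these lists is a share near that of all genes. Lgmn, the asparaginyl endopeptidase of endosomes, which cuts antigens and the invariant chain, was at 8.36 to 8.68 in the RYGB sham (median 8.44) and from 7.72 over 7.85 to 8.29 after RYGB, with no overlap. It fell 0.54 ± 0.13 on the log2 scale (difference -0.54, SE 0.13, limma adjusted p = 0.0198). In the VSG set its difference was 0.20 (limma adjusted p = 0.692), and the test of RYGB effect minus VSG effect gave -0.74 (limma adjusted p = 0.0663). The call on Lgmn was lost with RYGB and its sham fitted alone (adjusted p = 0.0524), with the acinar mean as a covariate (-0.54, adjusted p = 0.0761), without the arrays with an acinar mean above 7 (-0.65, adjusted p = 0.0696), without RYGB replicate 2 (-0.50, adjusted p = 0.0544) and without sham replicate 1 (-0.48, adjusted p = 0.0734), all by limma.

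Fcgrt, the heavy chain of the neonatal Fc receptor, which pairs with B2m and carries IgG across epithelia, ran from 8.05 to 8.28 in the RYGB sham (median 8.23) and from 7.45 over 7.77 to 7.95 after RYGB, again with no overlap. Its difference was -0.43 ± 0.10 (SE, limma adjusted p = 0.014), while VSG and its sham differed by 0.01 (limma adjusted p = 0.991) and the RYGB effect minus the VSG effect was -0.44 (limma adjusted p = 0.244). The RYGB sham had the highest group mean (8.20), beside 7.96 to 7.99 in the VSG set and 7.77 after RYGB. The VSG sham differed from the RYGB sham by -0.22 (limma adjusted p = 0.922). The call was lost with RYGB and its sham fitted alone (adjusted p = 0.0833), with the acinar covariate (-0.39, adjusted p = 0.112) and without the arrays with an acinar mean above 7 (-0.37, adjusted p = 0.515), by limma.

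In VSG against pair-fed sham 1 of the 13 interferon gamma genes was called lower, and it was the 1 gene called among the 42 of the 6 lists, beside 0.508% of all genes called and 1.14% without overlap. Ifngr2, a chain of the interferon gamma receptor, ran from 7.75 over 8.19 to 8.27 after VSG and from 8.51 over 8.70 to 8.90 in pair-fed sham, with no overlap. The difference was -0.58 ± 0.11 (SE, limma adjusted p = 0.0099). VSG differed by -0.13 from its sham (limma adjusted p = 0.783), which ran from 7.97 over 8.31 to 8.44, and pair-fed sham differed from it by 0.45 (limma adjusted p = 0.507), the larger of these 2 distances. The call was lost with the 2 groups fitted alone (adjusted p = 0.0512) and without the arrays with an acinar mean above 7 (-0.51, adjusted p = 1, with 1 VSG array left), by limma. No gene of these 6 lists was called in the other comparisons.

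**Figure D5:**
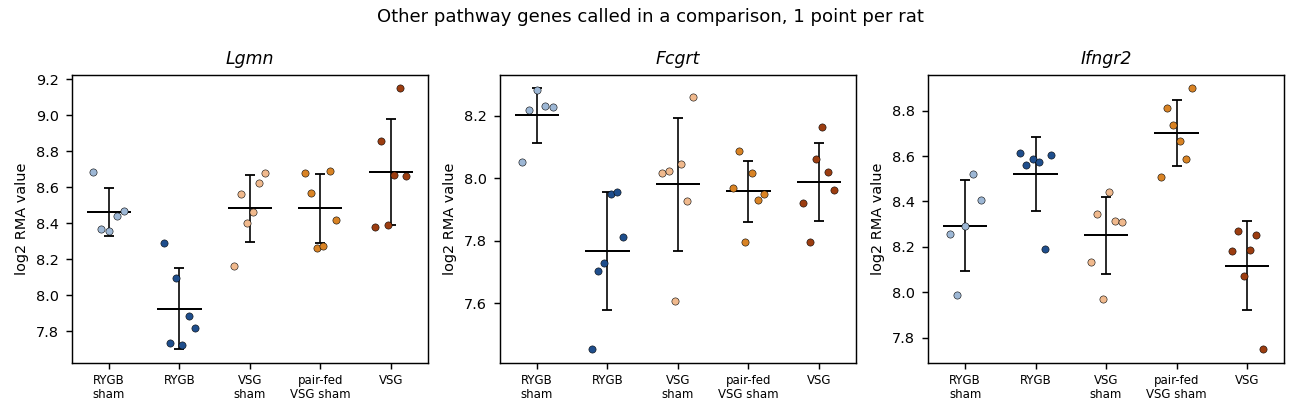
Log2 RMA values (y axis) of Lgmn, Fcgrt and Ifngr2 in each of the 5 groups (x axis), with 1 point per rat, a horizontal bar at the group mean and a whisker of ± 1 SD. Lgmn and Fcgrt of the RYGB arrays lie under all RYGB sham arrays, and Ifngr2 of the VSG arrays lies under all pair-fed sham arrays.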

How the data were processed

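RNA of duodenum from 29 rats in 5 groups was measured on Affymetrix gene arrays, 1 per rat, which the labels call biological replicates. The deposited values are log2 expression values. Per the submitters' processing notes, the authors ran RMA in the Affymetrix Expression Console (1.3.0.187). The sources used here name no chip definition, genome build or filter. Array medians lay between 2.80 and 2.97, and no pair of arrays correlated above 0.977. There is no read depth in array data, and precision rests on the number of arrays.

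Of 36685 rows, 14824 had 1 gene symbol in the platform annotation, 829 several and 21032 none here. Symbols were updated through Entrez numbers with the GRCr8 gene table (154 not found). The row with the highest mean stood for a gene. Of the rows with several symbols 4 hold a member symbol and were not used. One limma model (version 3.58.1, R 4.3.3, lmFit and eBayes) with 5 group means was fitted to all 14557 genes, two-sided, with Benjamini-Hochberg adjustment over all genes and a call at an adjusted p under 0.05. Fold changes are log2 differences ± SE. On simulated data for RYGB against its sham with 14557 genes, 90% of 200 genes changed by 1 log2 unit were recovered. The largest difference of a member after RYGB was 0.61, and the share recovered at such smaller changes was not simulated. Correlations were computed with scipy 1.17.1 and numpy 2.4.6 in Python 3.11.15.

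The members and lists were chosen with earlier results of these data known. Named with values are called genes, the 3 members of each class with the smallest p in each comparison, and by default B2m, Tap1, Tap2, Psmb8, Psmb9, Nlrc5, Cd74 and the RT1-B and RT1-D genes. RT1-M3-1, RT1-T24-2 and RT1-M5 were named after their correlations were seen. Alternatives were filters, other priors, scalings, array weights, covariates, the replicate number as a block, only the groups compared, and single arrays left out. No batch is given in the labels used here.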

Additional observations from a re-analysis of the deposited data

Results flagged for a closer look

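The 29 members named with values were checked group by group, and the 13 other class I members were not. In 13 of 145 groups of 1 member's arrays (8.97%) a single array stood far from the others of its group by Dixon's test at the 95% level, and chance gives about 1 in 20. In class II these were RT1-Ba in VSG sham replicate 4 (7.51, others 7.02 to 7.12), RT1-Db1 in VSG replicate 2 (6.44, others 5.76 to 6.01) and the dim RT1-Db2 in VSG replicate 6 (2.21, others 1.79 to 1.94), all above their group. In class I they were RT1-CE12 in pair-fed sham replicate 6, below its group (6.30, others 6.88 to 7.07), and RT1-S3 in VSG sham replicate 2, above it (6.88, others 6.24 to 6.47). The dim class I genes RT1-O1 in VSG replicate 3 (1.60, value 1.595, others 1.15 to 1.29) and in pair-fed sham replicate 1 (2.47, others 1.51 to 1.83) and RT1-M1-5 in VSG replicate 2 (2.27, others 1.48 to 1.64) were above theirs.

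Among the peptide supply genes Psmb9 in pair-fed sham replicate 1 was above its group (8.89, others 8.36 to 8.54). Below their groups were Psmb10 in pair-fed sham replicate 3 (7.94, others 8.61 to 8.82), Tapbp in VSG replicate 6 (8.09, others 8.42 to 8.56), Erap1 in pair-fed sham replicate 1 (6.89, others 7.25 to 7.46) and Tap2 in RYGB replicate 3 (4.92, others 5.44 to 5.74).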

How the results depend on the processing

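The count of members called was recomputed 153 times over the 6 comparisons and was 0 in 151 of them. It was 1 for RYGB against its sham with the lowest 33.3% of genes left out, where 28 members stayed in the test, and 1 with the replicate block, and the gene was RT1-DMb both times (0.61, adjusted p = 0.0479, and 0.63, adjusted p = 0.0274, by limma). Leaving out single arrays gave 0 to 0 members called in each comparison, and RT1-DMb after RYGB ran from 0.50 to 0.68 (adjusted p = 0.0514 to 0.202). Of 4395 recomputed values of named members these 2 of RT1-DMb carried a call, and none turned the sign of a call. The count over all genes after RYGB was 385, and 284 to 447 with single arrays left out, 192 with the groups fitted alone, 214 with the acinar covariate and 75 without arrays with an acinar mean above 7. For VSG against its sham it was 26, and 7 to 24, 6, 8 and 2 in the same settings, and for VSG against pair-fed sham 74, and 17 to 70, 11, 48 and 2, with the lowest counts without VSG replicate 3 (7) and without VSG replicate 6 (17). VSG against pair-fed sham had 123 with the lowest genes left out, 113 with a trended and robust prior, 48 with all rows tested and 49 with arrays centred on their median. For the RYGB effect minus the VSG effect it was 57, and 1 without those arrays. Leaving out the arrays with a high acinar mean leaves 1 VSG array, which is assumed to vary like the others. The cause of these shifts was not tested.

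The replicate numbers did not pair the samples: of 23 pairs of same-numbered arrays, 2 had deviations that correlated over 0.1 (range -0.217 to 0.234). The replicate block left 0 members called in each comparison other than RYGB against its sham, and moved no count over all genes by more than 1.5 times.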
